A study of Mus musculus with 10 samples.

Results

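Complement genes were examined in microglia, the resident macrophages of the central nervous system, taken from mouse brainstem by laser capture or by flow sorting. The set was fixed by name and held 9 of the 37447 genes in the table. It comprised the C1q chains C1qa, C1qb and C1qc, the components C3 and C4b, the anaphylatoxin receptors C3ar1 and C5ar1, and the complement receptor 3 chains Itgam and Itgb2. All 9 were matched by symbol and were listed above 0 in all 10 libraries.

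The libraries formed 3 groups, all from mice aged 6 weeks. GFP expressing microglia captured by laser (LCM_GFP, n = 4, 3 female and 1 male) and GFP expressing microglia obtained by sorting (FACS_GFP, n = 3, 2 female and 1 male) come from mice whose GFP allele, promoter and strain the labels do not name. Wild-type microglia obtained by sorting (FACS_WT, n = 3, 3 male) come from C57BL/6 mice. Captured cells came from briefly fixed, frozen sections and a proteinase K and acid-phenol RNA preparation, whereas sorted cells were dissociated, passed over Percoll and lysed in TRIzol. Capture therefore cannot be told apart from fixation and RNA extraction. Between the sorted groups the strain is labelled only for FACS_WT and sex differs as well. Each library is labelled as a separate biological replicate.

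Complement is a cascade of secreted proteins that marks surfaces for removal. C1q binds a target and starts the classical pathway, C4 and then C3 are cleaved onto the surface, and the released C3a and C5a fragments act through their own receptors. In brain, microglia are the main source of C1q, and their complement receptor 3, which binds fragments of deposited C3, takes part in the removal of synapses during development.

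The C1q genes form a cluster on chromosome 4, and the deposited mm9 loci place C1qb, C1qc and C1qa within 18675 bases. In mm9, C1qb lies at chr4:136436044-136442102, C1qc at chr4:136445719-136448980 and C1qa at chr4:136451832-136454718. Promoter sequence of 300 bases (250 before to 50 after the start of transcription) was matched by symbol for 6 members in RefSeq on GRCm38.p6. The promoters of C1qb and C1qc are shown because these neighbours had the most similar levels across libraries, and that of Itgam because it held the most matches to the PU.1 box. PU.1 is a transcription factor of the macrophage lineage, and capitals mark its core motif GAGGAA on either strand.

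C1qb (chr4:136886151-136886450, minus strand): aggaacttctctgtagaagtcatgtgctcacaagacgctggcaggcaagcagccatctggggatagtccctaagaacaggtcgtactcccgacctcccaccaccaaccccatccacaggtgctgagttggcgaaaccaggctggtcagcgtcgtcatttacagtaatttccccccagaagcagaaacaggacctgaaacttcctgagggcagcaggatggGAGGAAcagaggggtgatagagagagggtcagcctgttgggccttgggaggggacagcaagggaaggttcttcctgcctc

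C1qc (chr4:136892865-136893164, minus strand): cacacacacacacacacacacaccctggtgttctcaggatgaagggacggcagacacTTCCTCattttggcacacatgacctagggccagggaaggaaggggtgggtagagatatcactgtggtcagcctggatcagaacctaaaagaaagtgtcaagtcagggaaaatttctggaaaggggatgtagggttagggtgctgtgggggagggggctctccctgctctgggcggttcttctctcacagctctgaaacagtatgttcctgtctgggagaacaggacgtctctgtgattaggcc

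Itgam (chr7:128062390-128062689, plus strand): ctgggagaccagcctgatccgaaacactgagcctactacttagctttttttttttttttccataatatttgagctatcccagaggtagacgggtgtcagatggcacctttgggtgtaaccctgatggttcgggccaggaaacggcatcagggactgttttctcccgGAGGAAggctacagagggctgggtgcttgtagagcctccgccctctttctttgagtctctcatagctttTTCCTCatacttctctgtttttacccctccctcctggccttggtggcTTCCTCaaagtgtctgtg

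The PU.1 box was found once in the C1qb promoter, with its first base at position -30 from the start, and once in the C1qc promoter, at -193 on the opposite strand. Itgam held 3 boxes, with first bases at -84, -15 and 33. In all, 3 of the 6 promoters held the box, against 28.3% of 32851 mouse promoters of the same length. A C/EBP motif (TTNNGNAA, either strand) was found in 4 of the 6 promoters, with 3 matches in C3, against 40.7% of all promoters. One Itgam C/EBP match overlaps the PU.1 box at 33. The AP-1 motif TGANTCA occurred in C3ar1 alone among the 6, at -22, against 7.81% of all promoters. These matches describe the letters in the window, and binding was not measured.

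Levels are given in the authors' FPKM, scaled to transcript length, and the files give no read counts. All 17 genes of a microglia reference list (Csf1r, P2ry12, Tmem119 and others) reached at least 1 FPKM in every library of every group. Their summed level was 2346 to 5546 FPKM in LCM_GFP, 9114 to 11120 FPKM in FACS_GFP and 10810 to 13740 FPKM in FACS_WT. All 10 oligodendrocyte markers, all 9 neuron markers and 9 of 10 astrocyte markers reached 1 FPKM in every LCM_GFP library. Oligodendrocyte markers summed to 2973 to 8018 FPKM in LCM_GFP, 21.6 to 26.6 FPKM in FACS_GFP and 24.6 to 32.8 FPKM in FACS_WT. Neuron markers summed to 854 to 2255 FPKM in LCM_GFP, 2.40 to 9.77 FPKM in FACS_GFP and 1.94 to 2.23 FPKM in FACS_WT, where Syt1 was listed at 0 throughout, as was the oligodendrocyte marker Mal. Astrocyte markers summed to 474 to 993 FPKM in LCM_GFP, 29.9 to 33.2 FPKM in FACS_GFP and 21.8 to 26.0 FPKM in FACS_WT. Endothelium markers summed to 79.1 to 188.9 FPKM in LCM_GFP, 19.6 to 24.55 FPKM in FACS_GFP and 14.9 to 22.55 FPKM in FACS_WT. Among them Pecam1 went the other way, averaging 8.83 FPKM in LCM_GFP, 19.96 FPKM in FACS_GFP and 17.3 FPKM in FACS_WT. Perivascular macrophage markers summed to 2.25 to 19.4 FPKM in LCM_GFP, 22.8 to 50.2 FPKM in FACS_GFP and 30.1 to 36.5 FPKM in FACS_WT. Monocyte markers summed to 13.75 to 66.0 FPKM in LCM_GFP, 2.26 to 3.68 FPKM in FACS_GFP and 2.12 to 3.24 FPKM in FACS_WT. Vcan, which is not restricted to monocytes, made up most of the LCM_GFP sum, with 13.15 to 65.9 FPKM, while S100a4 and Plac8 were at 0 in every LCM_GFP library and Ccr2 averaged 0.812 FPKM in LCM_GFP, 1.24 FPKM in FACS_GFP and 0.798 FPKM in FACS_WT. Neutrophil markers summed to at most 9.60 FPKM in LCM_GFP, 0.392 FPKM in FACS_GFP and 14.9 FPKM in FACS_WT, with Ly6g at 0 in LCM_GFP and FACS_GFP. LCM_GFP replicates 1 and 3 stood apart, with Hba-x, an embryonic globin, at 1853 and 660.5 FPKM, against 2.16 and 0.225 FPKM in replicates 2 and 4 and 0 in every sorted library. Top2a, a proliferation gene, was at 251.2 and 43.9 FPKM in replicates 1 and 3, against 2.23 and 2.22 FPKM in replicates 2 and 4. The 10 highest genes held 34.4%, 24.5%, 7.04% and 7.74% of summed FPKM in LCM_GFP replicates 1 to 4. In sorted libraries they held 6.67% to 16.7%. In such bulk samples, fewer cells of a type and less RNA per cell cannot be told apart.

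C1q chains were among the most abundant transcripts of sorted microglia. In rank of mean FPKM among all 37447 genes, C1qb stood at 92 in LCM_GFP, 37 in FACS_GFP and 33 in FACS_WT. C1qc stood at 180 in LCM_GFP, 85 in FACS_GFP and 72 in FACS_WT, and C1qa at 1264 in LCM_GFP, 195 in FACS_GFP and 172 in FACS_WT. C1qb was above C1qc and C1qc above C1qa in all 10 libraries, though the C1qb and C1qc ranges overlapped within LCM_GFP. In all 3 groups the order of mean FPKM over the members was C1qb, C1qc, Itgam, C1qa, Itgb2, C3ar1, C5ar1, C4b and C3. Of these neighbours only C1qc and Itgam had overlapping ranges within a sorted group, while in LCM_GFP all 8 pairs of neighbours overlapped.

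C1qa, the A chain, had 68.3, 91.05, 54.1 and 49.5 FPKM in LCM_GFP, 312.9, 220.3 and 299.5 FPKM in FACS_GFP, and 294.8, 311.4 and 329.6 FPKM in FACS_WT. Every captured library lay below every sorted one. It averaged 65.75 ± 18.7 FPKM in LCM_GFP (SD, n = 4), 277.6 ± 50.1 FPKM in FACS_GFP and 311.9 ± 17.4 FPKM in FACS_WT (SD, n = 3 each). The log2 change on the log2(FPKM + 1) scale was -2.08 (SE 0.33) for LCM_GFP over FACS_GFP, with a limma adjusted p of 0.00251 over all genes tested. Against FACS_WT it was -2.27 (SE 0.32, limma adjusted p = 0.00143). With LCM_GFP replicates 2 and 4 alone, the libraries with almost no embryonic globin, the change was -2.01 over FACS_GFP (limma adjusted p = 0.00966) and -2.20 over FACS_WT (limma adjusted p = 0.00571). Both calls were lost under 1 of 18 alternatives, scaling to a microglia reference, which gave -0.36 over FACS_GFP (limma adjusted p = 0.643) and -0.31 over FACS_WT (limma adjusted p = 0.678).

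C1qb, the B chain, had 310.4, 662.2, 561.3 and 270.2 FPKM in LCM_GFP, 830.4, 657.3 and 875.4 FPKM in FACS_GFP, and 794, 926.7 and 1122 FPKM in FACS_WT. LCM_GFP replicate 2 just exceeded the lowest FACS_GFP library, and all captured libraries were below all FACS_WT libraries. Its log2 change was -0.89 (SE 0.37, limma adjusted p = 0.0950) over FACS_GFP and -1.16 (SE 0.37, limma adjusted p = 0.0461) over FACS_WT. Only the second passed the threshold of 0.05, and it was lost in 13 of 18 alternative settings, including the fit without LCM_GFP replicate 1 or 4 and that with sex as a covariate (-0.50, limma adjusted p = 0.527). FACS_WT is all male, so the sex fit sets only LCM_GFP replicate 2, the 1 captured male, against it.

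C1qc, the C chain, had 161.6, 412.5, 420.8 and 180.7 FPKM in LCM_GFP, 479.8, 378.2 and 495.6 FPKM in FACS_GFP, and 393.8, 553 and 541.3 FPKM in FACS_WT. LCM_GFP replicates 2 and 3 lay within the range of the sorted libraries, while replicates 1 and 4 lay below it. The log2 change was -0.74 (SE 0.42, limma adjusted p = 0.2001) over FACS_GFP and -0.87 (SE 0.42, limma adjusted p = 0.147) over FACS_WT, and neither passed the test.

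**Figure D1:**
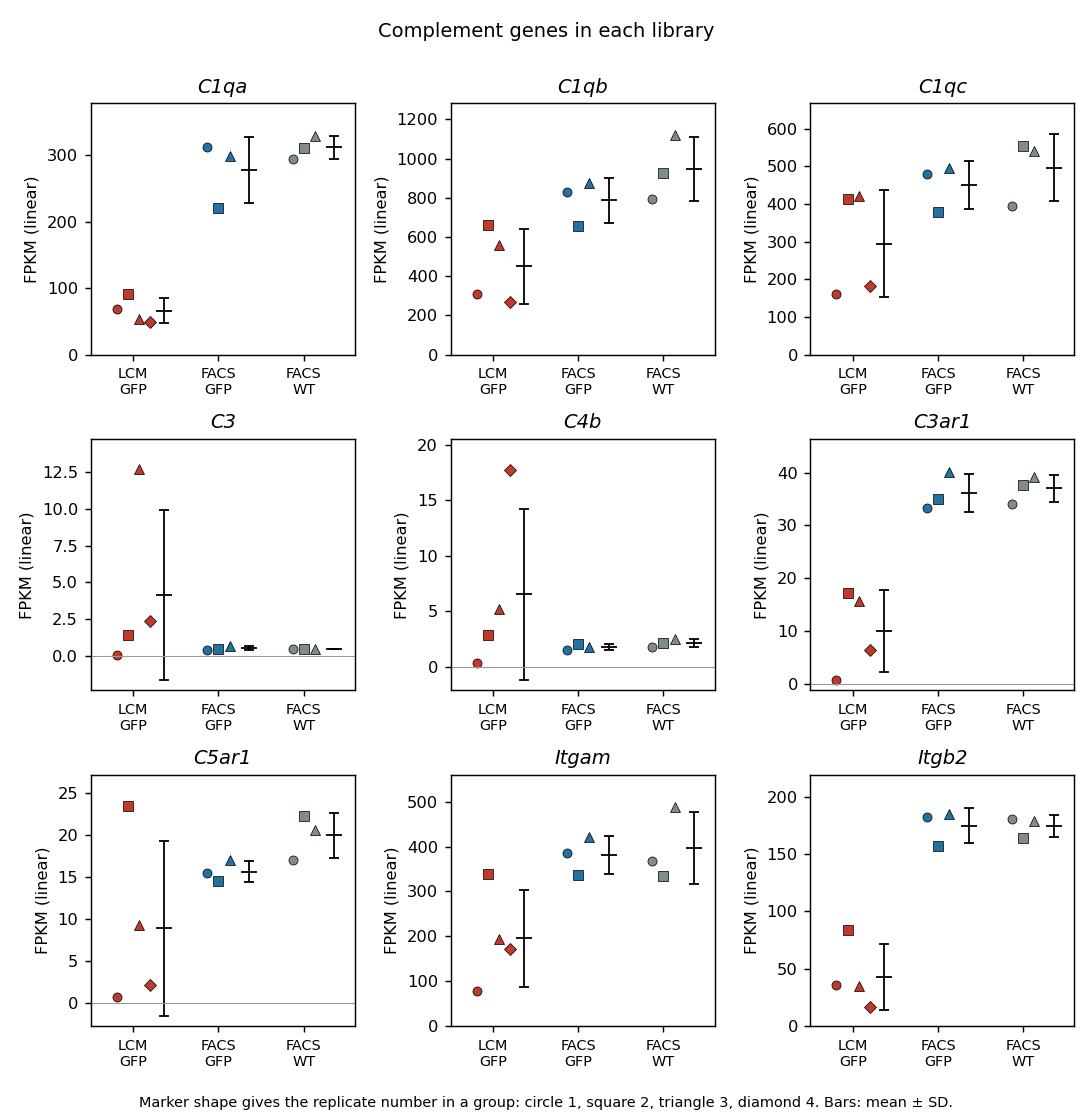
FPKM of the 9 complement genes (linear axes) in each LCM_GFP, FACS_GFP and FACS_WT library, left to right, with marker shape for the replicate number and bars for mean ± SD. C1qa, C3ar1 and Itgb2 lie lower in every captured library than in any sorted one, whereas the highest C3 and C4b values, 12.7 and 17.7 FPKM, are in captured libraries.

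Because the chains are parts of one protein and similar in transcript length (1040 bases for C1qa, 1088 for C1qb and 1203 for C1qc, longest GENCODE vM21 transcripts), their ratio within a library was compared; such a ratio does not depend on scaling between libraries. The ratio of C1qa to C1qb was 0.220, 0.137, 0.0964 and 0.183 in LCM_GFP, against 0.294 to 0.377 in the 6 sorted libraries. No captured library reached the sorted range. The ratio was 0.445-fold that of the sorted libraries (log2 difference -1.17), with an exact two-sided permutation p of 0.00952, the smallest that 4 against 6 can give, and an adjusted p of 0.0286 over 3 ratios. In contrast, the ratio of C1qc to C1qb was 0.521, 0.623, 0.750 and 0.669 in LCM_GFP and 0.482 to 0.597 in sorted libraries. These ranges overlapped (log2 difference 0.21, exact permutation p = 0.105, adjusted p = 0.105). Whether marker transcripts of other cells, fixation or RNA quality bear on the C1qa ratio was not tested.

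**Figure D2:**
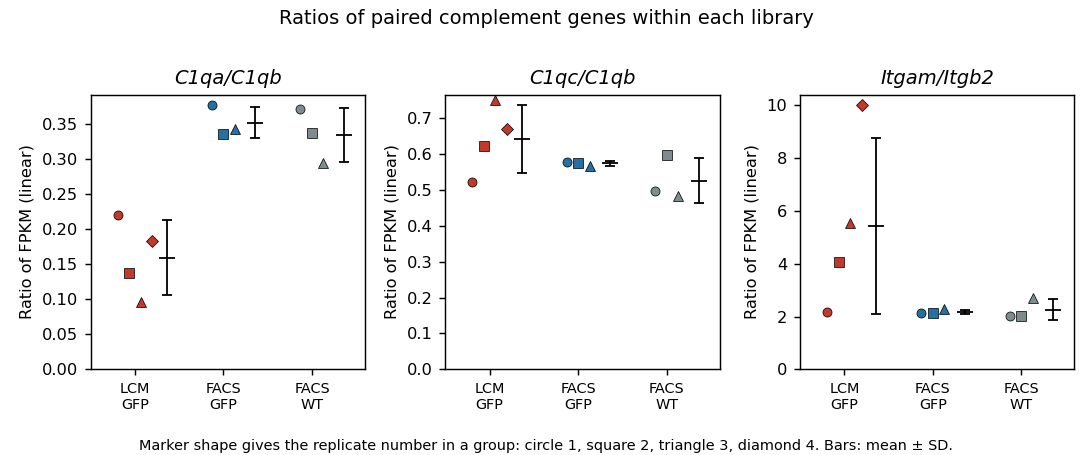
Ratio of FPKM within each library (linear axes) for C1qa over C1qb, C1qc over C1qb and Itgam over Itgb2, in LCM_GFP, FACS_GFP and FACS_WT, left to right, with bars for mean ± SD. C1qa over C1qb is at most 0.220 in captured libraries and at least 0.294 in sorted ones, while Itgam over Itgb2 reaches 10.0 in 1 captured library.

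C3 and C4b, the components cleaved after C1q binding, were low in sorted microglia and uneven in captured ones. C3 had 0.0627, 1.415, 12.7 and 2.34 FPKM in LCM_GFP, 0.362, 0.468 and 0.6246 FPKM in FACS_GFP, and 0.450, 0.442 and 0.456 FPKM in FACS_WT. LCM_GFP replicates 2, 3 and 4 exceeded every sorted library and replicate 1 lay below every one. The log2 change of C3 was 1.15 (SE 0.76, limma adjusted p = 0.274) over FACS_GFP and 1.18 (SE 0.76, limma adjusted p = 0.260) over FACS_WT. C3 entered these tests only through its captured libraries and missed the filter between the sorted groups.

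C4b had 0.349, 2.88, 5.25 and 17.7 FPKM in LCM_GFP, 1.55, 2.04 and 1.804 FPKM in FACS_GFP, and 1.796, 2.17 and 2.50 FPKM in FACS_WT. As for C3, captured replicates 2, 3 and 4 lay above all sorted libraries and replicate 1 below all of them. Its log2 change was 0.83 (SE 0.82, limma adjusted p = 0.458) over FACS_GFP and 0.66 (SE 0.82, limma adjusted p = 0.562) over FACS_WT. Without LCM_GFP replicate 4 it was 0.20 over FACS_GFP and 0.03 over FACS_WT, and without replicate 1 it was 1.46 and 1.29, none of them called. C4b has a near-identical neighbour, C4a, so its level depends on how reads were divided, and C4a had at most 0.696 FPKM in LCM_GFP, 1.04 FPKM in FACS_GFP and 1.09 FPKM in FACS_WT. In the same LCM_GFP libraries astrocyte markers summed to 474.1, 777.8, 582.4 and 992.7 FPKM. Neuron markers summed to 853.6, 1365, 1728 and 2255 FPKM, and oligodendrocyte markers to 2973, 8018, 5358 and 4907 FPKM. Each of these sums was lowest in replicate 1. Endothelium markers, which summed to 186.6, 96.4, 79.1 and 188.9 FPKM, were instead lowest in replicate 3. Astrocyte and neuron sums were highest in replicate 4, as was C4b, and none of the sums was highest in replicate 3, as C3 was. The part of other cells in the C3 and C4b levels was not tested.

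The anaphylatoxin receptors were moderately abundant in sorted microglia. C3ar1, the receptor for C3a, had 0.740, 17.2, 15.6 and 6.39 FPKM in LCM_GFP, 33.2, 35.0 and 40.1 FPKM in FACS_GFP, and 34.1, 37.6 and 39.2 FPKM in FACS_WT. Every captured library was below every sorted one, but replicate 1 was far below the other captured libraries. The log2 change was -2.23 (SE 0.81, limma adjusted p = 0.0681) over FACS_GFP and -2.26 (SE 0.81, limma adjusted p = 0.0647) over FACS_WT, which did not pass the test. Without replicate 1 of LCM_GFP or without replicate 2, it passed in both comparisons, as it did in 5 of 18 alternatives in each.

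C5ar1, the receptor for C5a, had 0.694, 23.4, 9.28 and 2.06 FPKM in LCM_GFP, 15.4, 14.5 and 16.9 FPKM in FACS_GFP, and 16.96, 22.3 and 20.5 FPKM in FACS_WT. LCM_GFP replicate 2 was the highest of all 10 libraries and the other captured libraries lay below all sorted ones. The log2 change of C5ar1 was -1.47 (SE 0.89, limma adjusted p = 0.236) over FACS_GFP and -1.79 (SE 0.89, limma adjusted p = 0.155) over FACS_WT, where it passed only without LCM_GFP replicate 2 (limma adjusted p = 0.0344). Without LCM_GFP replicate 1 it was -0.86 over FACS_GFP and -1.18 over FACS_WT. Its SD among LCM_GFP libraries was 1.73 on the log2(FPKM + 1) scale, the widest of the 9 members, against 0.39 for C1qa, the narrowest, and a median of 0.95 over 13820 genes. The median SD over the same genes was 0.13 in FACS_GFP and 0.17 in FACS_WT.

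Complement receptor 3 pairs the alpha chain Itgam (CD11b) with the beta chain Itgb2 (CD18), which also pairs with other alpha chains. Itgam had 78.1, 339.8, 194.3 and 171.7 FPKM in LCM_GFP, 386.8, 337.5 and 420.9 FPKM in FACS_GFP, and 368.3, 334.2 and 488 FPKM in FACS_WT. Only LCM_GFP replicate 2 reached the sorted range. Its log2 change was -1.13 (SE 0.47, limma adjusted p = 0.0964) over FACS_GFP and -1.18 (SE 0.48, limma adjusted p = 0.0924) over FACS_WT, so neither passed. Without LCM_GFP replicate 2 it passed in both comparisons, as did C1qb.

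Itgb2 had 36.0, 83.7, 35.0 and 17.1 FPKM in LCM_GFP, 182.4, 157.3 and 185.1 FPKM in FACS_GFP, and 180.4, 163.8 and 179.3 FPKM in FACS_WT. The highest captured value, 83.7 FPKM, was below the lowest sorted value, 157.3 FPKM. The log2 change was -2.21 (SE 0.51, limma adjusted p = 0.0134) over FACS_GFP and -2.21 (SE 0.51, limma adjusted p = 0.0132) over FACS_WT. These calls were lost when any 1 sorted library of the comparison was left out (limma adjusted p 0.0598 to 0.0727), though the change then stayed between -2.29 and -2.17, and with sex as a covariate against FACS_WT (-1.05, limma adjusted p = 0.238). That sex fit sets only LCM_GFP replicate 2, the captured library highest in Itgb2, against FACS_WT. Both Itgb2 calls were also lost with scaling to the microglia reference, which gave -0.50 over FACS_GFP (limma adjusted p = 0.524) and -0.27 over FACS_WT (limma adjusted p = 0.735). With LCM_GFP replicates 2 and 4 alone, the changes were -2.16 (limma adjusted p = 0.0535) over FACS_GFP and -2.16 (limma adjusted p = 0.0488) over FACS_WT.

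Within libraries, the ratio of Itgam to Itgb2 was 2.17, 4.06, 5.56 and 10.0 in LCM_GFP, against 2.04 to 2.72 in the 6 sorted libraries. Replicate 1 fell within the sorted range and the other 3 captured libraries lay above it. The ratio was 2.13-fold that of sorted libraries (log2 difference 1.09, exact two-sided permutation p = 0.0286, adjusted p = 0.0429 over 3 ratios). With a pseudocount of 1 in the ratio the adjusted p was 0.0571. The call was also lost without LCM_GFP replicate 2, 3 or 4 (differences of 1.16, 1.01 and 0.72, exact permutation adjusted p = 0.107 each). It was lost as well without replicate 1 or 2 of FACS_GFP or of FACS_WT (differences of 1.07 to 1.08, exact permutation adjusted p = 0.0714 each), so leaving out 7 of the 10 libraries, 1 at a time, ended it. The alpha chain of complement receptor 4, Itgax, which also pairs with Itgb2, had 0.00586, 16.45, 0.520 and 0.00720 FPKM in LCM_GFP and 5.89 to 8.97 FPKM across the sorted libraries.

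In LCM_GFP over FACS_GFP, 2 of the 9 members fell (C1qa and Itgb2) and none rose, where 19.6% of 13403 genes tested fell and 12.5% rose, a called share of 32.1% in all. The ranges of 3 members did not overlap, all lower in LCM_GFP, beside 31.2% of all genes. At an unadjusted p under 0.05 there were 5 members, beside 44.9% of all genes. The median log2 change was -1.13 over the 9 members and -0.60 over all genes tested. In LCM_GFP over FACS_WT, which shares the captured libraries with the first comparison, 3 members fell (C1qa, C1qb and Itgb2) and none rose, where 19.1% of 13415 genes fell and 12.3% rose, 31.4% in all. Here 4 members had ranges that did not overlap, all lower in LCM_GFP, beside 29.6% of all genes. The median was -1.18 over the members and -0.59 over all genes.

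Between the sorted groups, FACS_GFP over FACS_WT, 8 members were tested with limma and none was called (1 at an unadjusted p under 0.05), where 0.11% of 11814 genes were called and 13.1% had an unadjusted p under 0.05. C5ar1 was the member with the largest change, -0.33 (SE 0.13, 95% interval -0.63 to -0.02, limma adjusted p = 0.357). It was also the only member whose ranges did not overlap, lower in FACS_GFP, beside 9.29% of all genes. The other 7 changes lay between -0.26 and 0.00. Their 95% intervals were narrow for Itgb2 (-0.26 to 0.26) and C3ar1 (-0.30 to 0.23) and reached -0.66 to 0.14 for C1qb. These intervals do not show that the genotypes had equal levels.

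**Figure D3:**
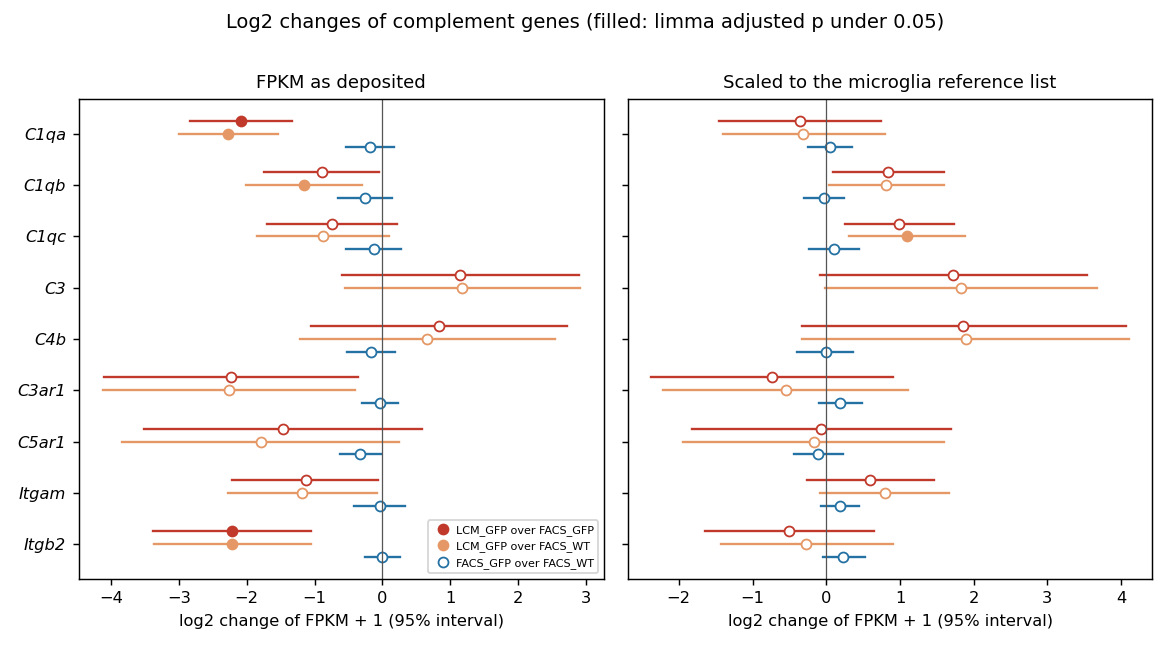
Log2 changes of FPKM + 1 with 95% limma intervals for each member and comparison, from FPKM as deposited (left) and after scaling to the microglia reference list (right); filled points have an adjusted p under 0.05. At left the captured libraries are lower for C1qa (-2.08 and -2.27) and Itgb2 (-2.21 in both). At right C1qb, C1qc and Itgam lie above 0 against both sorted groups, as C3 and C4b do in both panels.

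The authors' deposited table of comparisons gives no q-value under 0.05 for any member. In the authors' deposited table the lowest q-values were 0.0848 for C1qa between sorted and captured GFP microglia and 0.0638 for C1qa between captured GFP and sorted wild-type microglia. Its log2 change for C1qa, captured over sorted GFP microglia, is -2.42 in the authors' deposited table. For Itgb2 the same column of the authors' deposited table gives -2.33 with a q-value of 0.283.

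Members were also set against the microglia reference list within each library, since the summed reference level was lower in every captured library than in any sorted one. The geometric mean of FPKM + 1 over the 17 genes was 73.0, 210.1, 196.6 and 97.9 in LCM_GFP, 396.4 to 478.8 in FACS_GFP and 477 to 591 in FACS_WT. Relative to this mean, C1qb was higher in all 4 captured libraries than in any sorted one, by 1.24, 0.81, 0.66 and 0.62 on the log2 scale over the mean of the 6 sorted libraries. C1qc did likewise, by 1.17, 0.99, 1.12 and 0.90, and so did Itgam, by 0.40, 0.99, 0.28 and 1.11. C1qa did not, with differences of 0.60, -0.51, -1.16 and -0.28. Relative C3 differed by -0.18, 2.79, 6.05 and 4.62, and relative C4b by 0.22, 1.74, 2.70 and 5.46, with replicate 1 within the range of the sorted libraries for both. That placing of replicate 1 depends on the pseudocount, as these differences add none to the member. With FPKM + 1, its log2 level over the reference was -6.10 for C3, against at most -8.08 in sorted libraries. For C4b it was -5.76, against at most -7.03. Relative C3ar1 was within 0.23 of the sorted mean in LCM_GFP replicates 2, 3 and 4 and differed by -2.92 in replicate 1.

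After this scaling the limma changes over FACS_GFP were 0.99 for C1qc (adjusted p = 0.0586), 0.84 for C1qb (adjusted p = 0.0999) and 0.60 for Itgam (adjusted p = 0.294), opposite in sign to those without it. Those for C1qa and Itgb2 were -0.36 (adjusted p = 0.643) and -0.50 (adjusted p = 0.524). No member was called over FACS_GFP (2 at an unadjusted p under 0.05, beside 36.6% of all genes), where 22.5% of all genes were. Ranges lay apart and higher in LCM_GFP for C1qb, C1qc and Itgam over FACS_GFP, beside 34.7% of all genes, and for these and C4b over FACS_WT, beside 38.7%. Over FACS_WT, C1qc alone was called, at 1.09 (limma adjusted p = 0.0472), where 21.9% of all genes were called higher and 25.2% in either direction. The median of all genes was 0.84 over FACS_GFP and 1.05 over FACS_WT after this scaling, so C1qb and C1qc were close to the median gene. C1qa and Itgb2 lay below it.

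**Figure D4:**
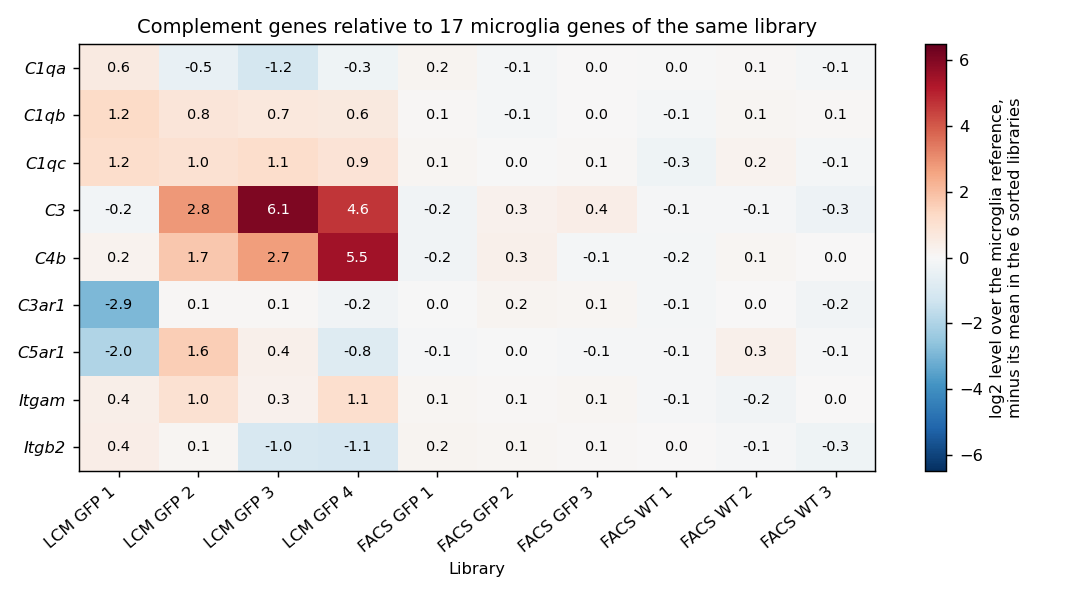
Level of each member over the microglia reference of the same library (log2 of FPKM over the geometric mean of 17 genes), minus its mean in the 6 sorted libraries, with libraries in columns. C1qb, C1qc and Itgam are above 0 in all 4 captured libraries (0.28 to 1.24). C3 and C4b are above 0 in replicates 2, 3 and 4 (1.74 to 6.05), and C3ar1 is at -2.92 in replicate 1.

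Outside the 9 members, 52 genes of the complement system were listed by role, of which 7 were at 0 in every library. In LCM_GFP over FACS_GFP, 10 of the 23 tested rose and 3 fell, with a median log2 change of 1.17, where 12.5% of all genes rose and 19.6% fell, with a median of -0.60. In LCM_GFP over FACS_WT 9 of 24 rose and 6 fell, with a median of 0.81, where 12.3% of all genes rose and 19.1% fell, with a median of -0.59. Of those that rose, 8 in each comparison were under 1 FPKM in every library of the sorted group and so entered the test only through the captured libraries where they were high. Of the 15 tested between the sorted groups none was called by limma, where 0.11% of 11814 genes were. At an unadjusted limma p under 0.05 there were 2 (C8g and Gpr77), beside 13.1% of all genes. Among the 13 tested regulators, 7 rose and 3 fell against either sorted group, and 6 of the 7 that rose entered in that way. The other, Sez6l2, had 0.879, 1.07 and 1.56 FPKM in FACS_GFP. Over FACS_GFP it therefore also passed the filter only with captured libraries. These counts of genes that rose are a description and support nothing about the list.

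Among the regulators that fell, Cr1l and Csmd3 were abundant in sorted microglia. Cr1l (Crry), the rodent membrane regulator of C3 and C4 cleavage, averaged 21.2 ± 8.53 FPKM in LCM_GFP (SD, n = 4), 131.1 ± 14.6 FPKM in FACS_GFP and 143.2 ± 31.3 FPKM in FACS_WT (SD, n = 3 each). The log2 change of Cr1l was -2.65 (SE 0.40, limma adjusted p = 0.00202) over FACS_GFP. Csmd3, of a family of CUB and sushi domain proteins, averaged 122.2 ± 50.4 FPKM in LCM_GFP (SD, n = 4), 485.7 ± 53.6 FPKM in FACS_GFP and 435.1 ± 35.6 FPKM in FACS_WT (SD, n = 3 each). It changed by -2.07 (SE 0.37, limma adjusted p = 0.00471) over FACS_GFP. After scaling to the microglia reference neither was called, with changes over FACS_GFP of -0.95 for Cr1l and -0.34 for Csmd3, and Csmd3 turned to 0.05 over FACS_WT.

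The regulators that rose had at most 2.14 FPKM in any sorted library. Clu, Vtn, Csmd2, Susd4 and Sez6l were tested only through their captured libraries, as was Sez6l2 over FACS_GFP. Their tests are given as a description. Clu (clusterin) and Vtn (vitronectin) are fluid-phase inhibitors of the terminal complex. Clu had 103.9, 104, 195.3 and 242.4 FPKM in LCM_GFP, 0.260, 0 and 0.164 FPKM in FACS_GFP, and 0.805, 0.392 and 0.168 FPKM in FACS_WT. Its log2 change was 7.06 (SE 0.46, limma adjusted p = 7.99e-05) over FACS_GFP. Vtn had 27.85, 16.95, 37.98 and 108.4 FPKM in LCM_GFP and at most 0.163 FPKM in FACS_GFP and 0.510 FPKM in FACS_WT. It changed by 5.09 (SE 0.64, limma adjusted p = 0.000924) over FACS_GFP. The sushi domain genes Sez6l2, Csmd2, Susd4 and Sez6l changed by 6.41, 4.35, 4.01 and 3.75 over FACS_GFP, with limma adjusted p between 5.08e-05 and 0.00796. Like the oligodendrocyte, neuron and astrocyte marker sums given above, these genes were higher in LCM_GFP than in either sorted group. Within LCM_GFP, Sez6l2, Csmd2 and Susd4 were highest in replicate 1, where those sums were lowest. The endothelium sum was 186.6 FPKM in replicate 1 and lowest in replicate 3, at 79.1 FPKM. Clu and Sez6l were lowest in replicate 1, and Vtn in replicate 2. The part of other cells in these levels was not tested.

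Of the receptors and binding proteins, C1qbp, a mitochondrial protein that binds C1q, averaged 60.45 ± 16.2 FPKM in LCM_GFP (SD, n = 4) and 25.85 ± 4.79 FPKM in FACS_GFP (SD, n = 3). It rose by 1.17 (SE 0.36, limma adjusted p = 0.0409). Against FACS_WT, which averaged 31.95 ± 8.56 FPKM (SD, n = 3), the change of C1qbp was 0.89 (SE 0.38, limma adjusted p = 0.106) and was not called. Lrp1, an endocytic receptor, averaged 91.6 ± 48.9 FPKM in LCM_GFP (SD, n = 4) and 235 ± 46.8 FPKM in FACS_WT (SD, n = 3), and changed by -1.50 (SE 0.48, limma adjusted p = 0.0441), or 0.46 with scaling to the microglia reference. Against FACS_GFP, which averaged 196.2 ± 2.97 FPKM (SD, n = 3), the change of Lrp1 was -1.26 (SE 0.46, limma adjusted p = 0.0696) and was not called, or 0.47 with that scaling. Gpr77, the second C5a receptor (C5ar2), had 2.06, 2.49, 1.79 and 0.712 FPKM in LCM_GFP, 5.33, 4.34 and 5.06 FPKM in FACS_GFP, and 6.97, 6.99 and 7.06 FPKM in FACS_WT. Like C5ar1 it was lower in every FACS_GFP library than in any FACS_WT library, with a log2 change of -0.44 (SE 0.13, limma adjusted p = 0.269) that did not pass the test. The other genes whose ranges did not overlap between the sorted groups were C8g (-0.43, limma adjusted p = 0.357), Calr (-0.26, limma adjusted p = 0.442) and Cd46 (0.21, limma adjusted p = 0.504). Of the 15 tested, 3 thus lay apart and lower and 1 apart and higher in FACS_GFP, beside 9.29% and 11.5% of all genes.

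**Figure D5:**
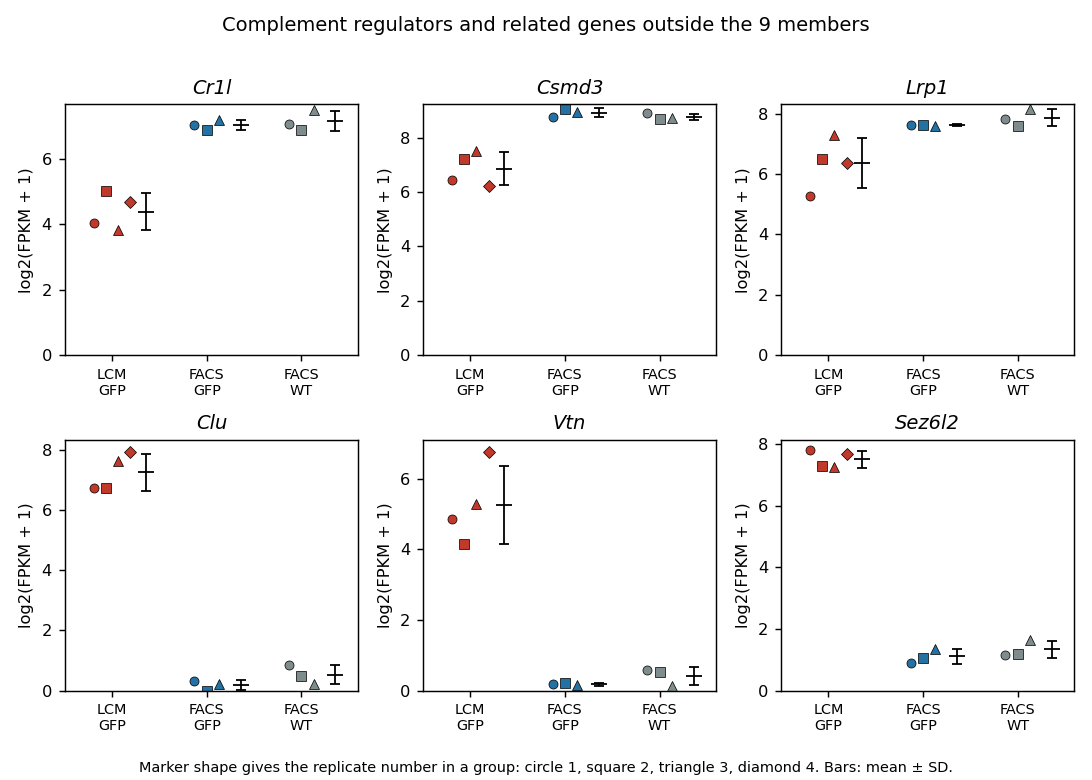
Levels on the log2(FPKM + 1) scale of 6 complement regulators and related genes in each LCM_GFP, FACS_GFP and FACS_WT library, left to right, with bars for mean ± SD. The top row (Cr1l, Csmd3, Lrp1) is lower in every captured library than in any sorted one and the bottom row (Clu, Vtn, Sez6l2) higher.

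Likeness between genes was measured as the root mean square difference of centred log2(FPKM + 1) profiles over the 10 libraries, where 0 is an identical profile. Among members the closest pair was C1qb with C1qc, at 0.18. C1qa was closest to Itgb2, at 0.33, rather than to its own partners. C3ar1 was closest to C5ar1 (0.52) and C3 to C4b (0.85). Among 4223 genes with a mean of at least 20 FPKM, the profiles most like the mean of the C1q chains were those of Sema4d (0.15), Irak2 (0.19), Msn (0.20), F11r (0.21) and Ptgs1 (0.21). For C3 the closest were Mark4 (0.34), Otub1, Sgms1, Ndufa10 and Aplp2 (0.45), and for C4b they were Auh (0.31), Brp44, Socs5, Rab6b and Ankrd12 (0.41). Mark4 had 20.46, 25.25, 150.3 and 32 FPKM in LCM_GFP, 16.2 to 20.94 FPKM in FACS_GFP and 20.96 to 28.06 FPKM in FACS_WT, so that, like C3, it was highest in LCM_GFP replicate 3. Auh had 10.48, 45.18, 37.18 and 104.2 FPKM in LCM_GFP, 17.34 to 22.92 FPKM in FACS_GFP and 22.37 to 24.45 FPKM in FACS_WT, so that, like C4b, it was highest in LCM_GFP replicate 4 and lowest in replicate 1. The libraries of 1 group share their preparation.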

How the data were processed

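The submitters' processing notes name Cufflinks 2.0.2, CASAVA 1.8.2, Bowtie2 2.0.0, TopHat2 2.0.4 and the build mm9, and cDNA was made and amplified with the Ovation kit per the labels' protocols. The deposited table holds FPKM values for 37447 genes in 10 libraries, of which 13661 genes, and 33 of 37 mitochondrial genes, are at 0 in every library, so a 0 can be a failed estimate. A second table deposited by the authors holds log2 fold changes with each p-value and q-value for the 3 comparisons. Depth is unknown: only 66.7% to 80.7% of low values were whole numbers of reads (tolerance 0.2) under the best step size, so whole reads were not recovered and no counting intervals are given. The strand setting and the treatment of reads with several positions are not given in the sources used here.

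Genes with at least 1 FPKM in at least 3 compared libraries were tested on log2(FPKM + 1), which understates changes of low genes, with limma 3.58.1 (trend, robust, statmod 1.5.0, R 4.3.3), using only the 2 groups compared. Tests were two-sided with Benjamini-Hochberg adjustment over all genes tested, and an adjusted p under 0.05 is a call; the test was checked on simulated data. Ratios were tested by exact permutation over libraries in scipy 1.17.1 (pandas 2.3.3, numpy 2.4.6, Python 3.11.15, matplotlib 3.10.9), with adjustment over 3 ratios. Starts of the deposited loci were found to count from 0 by setting gene spans against GENCODE vM21 and are printed counting from 1.

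Members and lists were chosen with earlier results of these data known. All members are named; of 52 further complement genes, those called with a mean of at least 5 FPKM in the higher group, up to 10 a comparison, and those with ranges apart where 5 or fewer; and the 5 genes most like C1q, C3 and C4b. Alternatives were 2 pseudocounts, 2 filters, 3 scalings, 1 fit of all libraries, sex as a covariate, a replicate block, LCM_GFP replicates 2 and 4 alone, and each library left out. Some genes of these lists are not reported here by name.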

Additional observations from a re-analysis of the deposited data

How the results depend on the processing

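For LCM_GFP over FACS_GFP, the 2 members called lower became 0 with scaling to the microglia reference and 4 with all libraries in one fit, and leaving out 1 library gave 1 (any FACS_GFP library) to 5 (without LCM_GFP replicate 2). For LCM_GFP over FACS_WT, the 3 called lower became 0 (with 1 called higher) with that scaling, 5 with all libraries in one fit and 1 with sex as a covariate, and 1 (any FACS_WT library) to 6 (without LCM_GFP replicate 2) with 1 library left out. With sex as a covariate, only LCM_GFP replicate 2, the 1 captured male, is set against the FACS_WT libraries, all male. C1qa was called in 17 of 18 alternatives in each comparison, all but the microglia scaling. Calls over all genes moved the same way, so the shifts in member counts are not particular to the members. Over FACS_GFP, 2624 of 13403 genes were called lower, 525 with microglia scaling and 3755 in one fit. This was 304 to 329 without a FACS_GFP library and 3015 without LCM_GFP replicate 2. Over FACS_WT, 2558 of 13415 were called lower, 446 with microglia scaling and 3724 in one fit. This was 326 to 384 without a FACS_WT library and 2941 without LCM_GFP replicate 2.

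Microglia scaling turned the sign of Itgam (0.60), C1qc (0.99) and C1qb (0.84) over FACS_GFP, of Itgam (0.79), C1qc (1.09) and C1qb (0.81) over FACS_WT, and, between the sorted groups, of Itgam (0.19), C1qa (0.05), C1qc (0.10) and C3ar1 (0.19). It put the median of all genes at 0.84 for LCM_GFP over FACS_GFP, in place of -0.60; median ratio scaling put it at -0.14 and quantile normalization at -0.29, with no member changing sign. Sex as a covariate gave C5ar1 0.23 over FACS_WT, again from LCM_GFP replicate 2 alone. Leaving out 1 library, FACS_GFP over FACS_WT ranged over -0.16 to 0.12 for Itgam (0.04 without FACS_GFP replicate 2) and -0.11 to 0.02 for C3ar1 (0.01 without FACS_WT replicate 3). The cause was not tested.

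The log2 ratio of C1qa to C1qb was -1.21 and that of Itgam to Itgb2 1.11 against FACS_GFP alone (adjusted p = 0.171 each, where 4 against 3 cannot go below an exact p of 0.0571), and Itgam to Itgb2 was 1.06 with a pseudocount of 1. Leaving out 1 library, they ranged from -1.34 to -0.95 (C1qa to C1qb), 0.13 to 0.31 (C1qc to C1qb, exact permutation adjusted p = 0.0238 without LCM_GFP replicate 1) and 0.72 to 1.46 (Itgam to Itgb2). Without any of LCM_GFP replicates 2, 3 or 4, C1qa to C1qb had an exact permutation adjusted p of 0.0714. Without LCM_GFP replicate 1 it was 0.0238, and 3 against 6 cannot go below an unadjusted 0.0238. The adjustment over 3 ratios depends on the other ratios as well.

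Over all genes, LCM_GFP over FACS_GFP called 1681 higher and 2624 lower. This was 1863 and 1357 with median ratio scaling, 1909 and 1791 with quantile normalization, and 2485 and 525 with microglia scaling. It was 738 to 758 and 304 to 329 without a FACS_GFP library, but 1458 to 2034 and 2702 to 3400 without an LCM_GFP library. Each fit took 1 variance per gene over both groups, although the median SD was 0.95 in LCM_GFP and 0.13 in FACS_GFP. LCM_GFP over FACS_WT called 1649 higher and 2558 lower, and 883 and 877 with sex as a covariate, where LCM_GFP replicate 2 alone stands for the captured group. Deviations of same-numbered libraries from their group means correlated at -0.040 to 0.006 between captured and sorted groups and 0.010 to 0.214 between the sorted groups. Libraries of different number were not compared, so this does not settle whether the numbers pair the samples. With the replicate block, 2, 2 and 0 members were called in the 3 comparisons (C1qb over FACS_WT -0.94, limma adjusted p = 0.107). In LCM_GFP over FACS_GFP it called 1437 genes higher and 1933 lower. No sorted group has a replicate 4, so LCM_GFP replicate 4 does not enter the changes of the block fit.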
